A study of Mus musculus with 2 samples.

Results

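Parental E14 mouse embryonic stem cells (WT) with transcripts of *Mest*, a paternally expressed imprinted gene that few of them transcribed, were described here against WT cells without them. They were selected on *Mest* itself. In the WT library, 2193 barcodes held a cell (at least 1000 detected genes, at most 5% mitochondrial UMIs and at least 10000 UMIs), and 212 of them had 2 or more *Mest* UMIs. A UMI, or unique molecular identifier, stands for 1 captured mRNA molecule. These 212 *Mest*-positive cells were compared with the 1944 WT cells in which no *Mest* UMI was counted (*Mest*-zero cells), over all genes, with most weight on genes that are not imprinted. The remaining 37 WT cells had 1 *Mest* UMI. The 5036 cells of the series include 2843 from a second library, made from *Smad1/5*-deficient E14 cells (S1/5 dKO), which lack by design the transcription factors that carry BMP signals. Both were grown in SL, a serum medium with 15% FBS and 1000 U/ml LIF, and were captured with a droplet method that counts mRNA near its 3′ end. The labels name no age, sex or clone for these cultured cells, and which S1/5 dKO line was used is not stated. *Smad5* mRNA was 9.11 CPM (UMIs of a gene per 1000000 UMIs) in the second library and 5.89 in *Mest*-zero WT cells. *Smad1* mRNA was 9.18 and 13.1 CPM in the same order. A level of mRNA does not show whether the protein is made, so these values do not test the genotype. The second library is named below by its label, as the dKO-labelled library.

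The *Mest*-positive cells held 9903540 UMIs (median 41336.5 per cell) and the *Mest*-zero cells 84153366 (median 38718.5), and the median share of mitochondrial UMIs was 1.75% and 1.70%. The dKO-labelled library held 108678040 UMIs (median 34856 per cell). No cell barcode was shared between the libraries. Cells over 2 times the median UMIs of the WT cells numbered 19 among *Mest*-positive and 109 among *Mest*-zero cells, and no doublets were removed. Each condition has 1 library and cells are not replicates, so no test was run and no p-value is given. A level in CPM sums the UMIs of a gene over a group of cells and scales them to the total of that group, and a log2 ratio compares *Mest*-positive with *Mest*-zero cells. Ranges in parentheses after a level, share or ratio are exact 95% Poisson or binomial intervals, which cover counting error only.

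Imprinted genes are transcribed mostly from 1 parental copy, and for most of them DNA methylation laid down in 1 germline sets which copy. Most paternally expressed genes (PEGs), *Mest*, *Nnat*, *Plagl1* and *Impact* among them, are silent on the maternal copy, where a differentially methylated region (DMR) carries methylation from the oocyte. In embryonic stem cells in serum this methylation is often unstable, and imprinted genes can vary from cell to cell and from line to line. ZFP57 and TRIM28 protect it, and ZFP57 binds the hexamer TGCCGC when its CG is methylated.

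Promoter windows of 300 bases (250 before and 50 after a start) show what kind of sequence drives the genes on which the comparison turns. They are from RefSeq on GRCm38.p6, written 5′ to 3′ along the gene, with each CG dinucleotide, the site of DNA methylation, in capitals. *Mest* at chr6:30737800-30738099 (plus strand, a start inside the annotated gene) and *Nnat* at chr2:157559828-157560127 (plus strand) each hold 17 CG. *Fkbp6* at chr5:135349995-135350294 (minus strand, 21 CG) and *Fmr1nb* at chrX:68761589-68761888 (plus strand, 9 CG) are not imprinted and had higher levels in *Mest*-positive cells. *Grb10* at chr11:12037371-12037670 (minus strand, 45 CG) had a lower one.
Mest: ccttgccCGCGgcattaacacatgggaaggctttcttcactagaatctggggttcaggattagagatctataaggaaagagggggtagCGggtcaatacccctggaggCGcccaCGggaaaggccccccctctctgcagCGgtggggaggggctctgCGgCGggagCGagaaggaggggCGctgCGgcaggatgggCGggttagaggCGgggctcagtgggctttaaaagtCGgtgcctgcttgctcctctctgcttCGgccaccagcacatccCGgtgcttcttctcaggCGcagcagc
Nnat: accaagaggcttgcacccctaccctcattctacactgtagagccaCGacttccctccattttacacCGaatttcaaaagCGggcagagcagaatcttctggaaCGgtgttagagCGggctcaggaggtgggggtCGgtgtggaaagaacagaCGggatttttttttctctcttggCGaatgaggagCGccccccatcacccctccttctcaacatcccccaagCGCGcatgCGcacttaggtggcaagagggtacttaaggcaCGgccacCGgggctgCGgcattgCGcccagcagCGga
Fkbp6: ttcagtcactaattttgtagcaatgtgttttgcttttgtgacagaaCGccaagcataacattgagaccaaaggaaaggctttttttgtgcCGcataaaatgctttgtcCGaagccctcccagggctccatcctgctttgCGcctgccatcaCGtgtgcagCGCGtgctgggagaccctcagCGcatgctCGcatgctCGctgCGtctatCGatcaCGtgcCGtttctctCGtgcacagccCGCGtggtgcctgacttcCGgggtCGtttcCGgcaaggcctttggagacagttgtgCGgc
Fmr1nb: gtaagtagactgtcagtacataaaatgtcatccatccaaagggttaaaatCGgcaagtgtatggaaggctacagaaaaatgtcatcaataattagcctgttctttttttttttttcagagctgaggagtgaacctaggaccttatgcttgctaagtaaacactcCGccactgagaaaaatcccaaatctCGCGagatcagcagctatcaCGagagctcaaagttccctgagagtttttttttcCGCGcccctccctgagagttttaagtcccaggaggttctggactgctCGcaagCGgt
Grb10: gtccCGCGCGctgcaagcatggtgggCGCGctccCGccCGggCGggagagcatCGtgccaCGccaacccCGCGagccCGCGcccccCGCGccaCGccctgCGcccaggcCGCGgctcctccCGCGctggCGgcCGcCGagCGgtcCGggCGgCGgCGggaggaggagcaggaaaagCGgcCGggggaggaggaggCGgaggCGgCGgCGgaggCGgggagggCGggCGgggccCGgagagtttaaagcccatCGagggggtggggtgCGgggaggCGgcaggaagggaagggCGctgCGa
Of all 32851 windows, 34.6% hold 15 or more CG, and 11.6% hold TGCCGC or its reverse complement GCGGCA. The hexamer is in the windows of *Mest*, *Nnat*, *Fkbp6* and *Grb10* printed above and in that of *Plagl1*, and, of the 12 windows found for the 15 genes with the highest ratios, in the 2 of *Fkbp6*. Another window of *Mest* (chr6:30733256-30733555, 8 CG) and another of *Grb10* (chr11:12027922-12028221, 9 CG), not printed, lack the hexamer. Among the 10 genes with the lowest ratios it is in the windows of *Wdsub1* and *Pdzd8*. Of those 15 genes 10 have a window, and 4 of these reach 15 CG. Of the 10 genes with the lowest ratios 7 have one, and again 4 reach 15 CG. A match is a description of the letters and not a site.

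*Mest* (ENSMUSG00000051855, chromosome 6 of GRCm38, 30723547 to 30748465), which encodes a protein with a hydrolase fold, chose the cells, so its values are given as a description. The 212 *Mest*-positive cells were 9.67% of the WT cells (8.46 to 10.98%), with a median of 4 *Mest* UMIs and at most 15. Per cell the lowest level was 14.3 CPM, the median 99.8 and the highest 624. In the dKO-labelled library, 2070 of 2843 cells had 2 or more *Mest* UMIs (72.8%), with a median of 103 CPM per such cell. *Mest*-positive WT cells and those cells thus had medians close to each other, while the share of such cells differed. Both medians are over cells that passed the same minimum of 2 UMIs, which sets a floor under each. The rule cut between 37 cells with 1 UMI and 49 with 2, at median depths of 37692 and 39276 UMIs per cell. In 72422 WT barcodes with 10 to 100 UMIs, which hold free RNA and no cell, 25 *Mest* UMIs were found, or 0.000345 per barcode. Of the UMIs in these barcodes that was 14.2 CPM, beside 14.3 CPM in the lowest *Mest*-positive cell. The first value is a share within free RNA, at a mean of 24.4 UMIs per barcode, and not what free RNA adds to a cell. How much free RNA adds to the counts of a cell was not tested. After thinning to 10000 UMIs per cell, 140 of the 212 cells still had a *Mest* UMI (66.0%). In the dKO-labelled library it was 56.1% of all 2843 cells. Those were not selected on *Mest* and the 212 were, so the 2 shares cannot be compared.

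**Figure D1:**
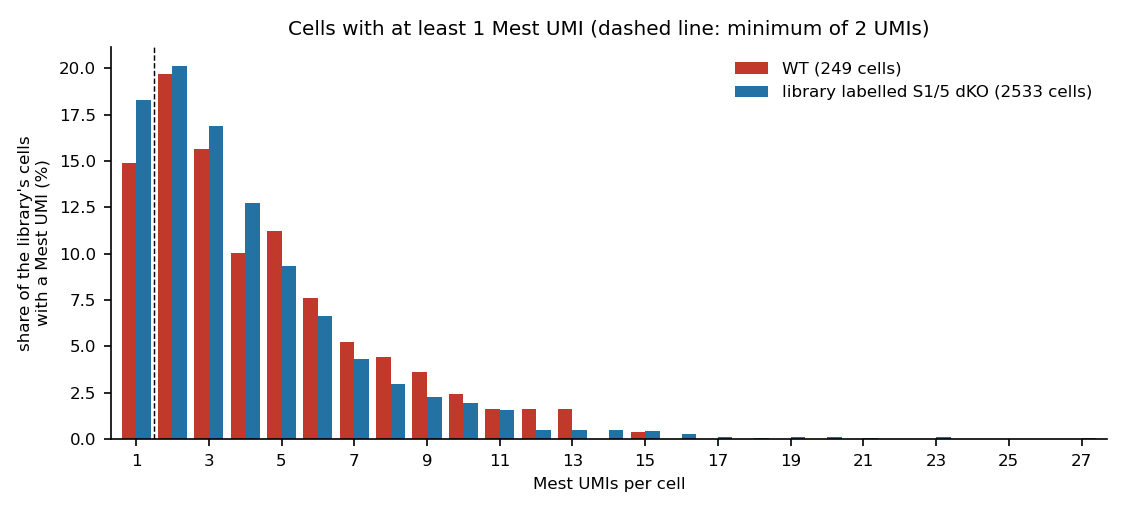
*Mest* UMIs per cell (x axis) among cells with at least 1, as a share of those cells in each library (y axis, %); the 1944 WT cells and 310 dKO-labelled cells with none are not drawn. Both libraries have their highest bar at 2 UMIs, and the bars of the 249 WT cells run to 15 UMIs.

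*Nnat* and genes of the *Xlr* family, which with *Mest* were proposed as markers of these cells, were many times higher in them. *Nnat* (ENSMUSG00000067786, chromosome 2, 157560078 to 157562522) encodes neuronatin, a small membrane protein. It had 145 UMIs in *Mest*-positive cells (14.6 CPM) and 139 in the far larger group of *Mest*-zero cells (1.65 CPM), a log2 ratio of 3.15 (2.80 to 3.49). A *Nnat* UMI was found in 87 *Mest*-positive cells (41.0%, 34.3 to 48.0%) and in 99 *Mest*-zero cells (5.09%). In the dKO-labelled library the level was 24.9 CPM and the share 54.0%. The *Mest*-zero cells were themselves chosen, on having no *Mest* UMI, so their share is not that of all WT cells. The intervals of the shares cover counting error only, and *Nnat* was named as a marker with earlier results of these data known.

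The *Xlr* genes lie in copies on the X chromosome and encode proteins related to a component of meiotic chromosomes. *Xlr3a* had 38 and 22 UMIs (log2 ratio 3.88, 3.08 to 4.70) and *Xlr4a* 30 and 6 (5.41, 4.12 to 6.96). *Xlr3b* (3.43) and *Xlr3c* (3.22) were apart by a similar factor. Since these copies are nearly identical, reads can be divided between them, and the 6 *Xlr3* and *Xlr4* genes were also summed. Their sum was 16.3 CPM (13.8 to 18.97) in *Mest*-positive cells, 1.26 (1.03 to 1.52) in *Mest*-zero cells and 25.6 (24.7 to 26.6) in the dKO-labelled library. An *Xlr3* or *Xlr4* UMI was present in 59 of the 212 cells (27.8%, 21.9 to 34.4%) and in 4.42% of *Mest*-zero cells.

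Both markers were found in part of the *Mest*-positive cells. A UMI of *Nnat* and one of *Xlr3* or *Xlr4* were found together in 28 cells, *Nnat* alone in 59, *Xlr3* or *Xlr4* alone in 31 and neither in 94. An *Xlr* UMI was present in 32.2% of those with *Nnat* and 24.8% of those without it. At these low levels the absence of a UMI does not show that a cell lacked the transcript.

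Outside the imprinted genes the cells were nearly alike, with a small set of exceptions. Of 7981 genes with at least 500 UMIs over both groups, *Mest* left out, 93.5% were within 1.2-fold of each other and 99.6% within 1.5-fold. At least 2-fold higher in *Mest*-positive cells were 4 genes (0.0501%), none of them imprinted. At least 2-fold lower were 3 (0.0376%), of which *Grb10* is imprinted. The 4 higher genes were *Fkbp6*, *Slc9a3r2*, *Aass* and *Fmr1nb*. All 4 stayed at least 2-fold apart without the UMIs of the gene in its top cell, the cell of each group with the most. Here and below, values without a top cell take out only its UMIs of that gene and keep the group totals. With at least 5 *Mest* UMIs required, *Aass* was at 0.84 and *Fkbp6*, at 1.72, had too few UMIs for the limit. After thinning to 10000 UMIs per cell, where 53 cells had 2 or more *Mest* UMIs, *Fkbp6* was at 0.96. *Fkbp6* (139 and 376 UMIs) and *2310030G06Rik* (78 and 443) reached 500 UMIs only through their higher level in *Mest*-positive cells, so these counts are a description. At a limit of 200 UMIs, 9 of 9976 genes were at least 2-fold higher, these 4 included.

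**Figure D2:**
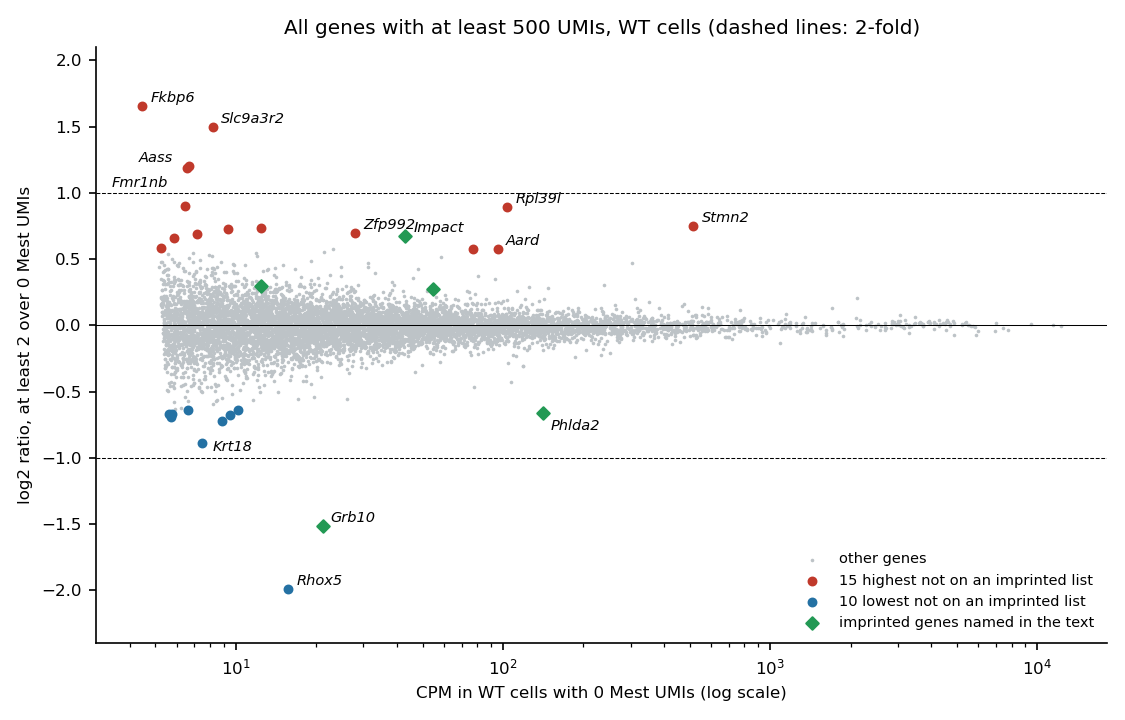
Level in *Mest*-zero WT cells (x axis, CPM, log scale) against the log2 ratio of *Mest*-positive over *Mest*-zero cells (y axis) for genes with at least 500 UMIs. Points spread less as levels increase, *Fkbp6*, *Slc9a3r2*, *Aass* and *Fmr1nb* lie above the upper dashed line and *Grb10* and *Rhox5* below the lower one; *Gm21761*, at a ratio of −6.69, is outside the axis.

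*Fkbp6* (ENSMUSG00000040013, chromosome 5, 135291704 to 135350044), needed in male germ cells for meiosis and for the silencing of transposons by piRNAs, had the highest ratio at the limit of 500 UMIs. Its level was 14.04 CPM in *Mest*-positive cells and 4.47 in *Mest*-zero cells, 3.14 times as high (log2 ratio 1.65, 1.36 to 1.94). After thinning, which left 53 cells with 2 or more *Mest* UMIs, the log2 ratio of *Fkbp6* was 0.96. A UMI was present in 33.5% and 10.7% of the cells, and the most in 1 cell were 8 and 9 UMIs, so neither group rested on a single cell. The dKO-labelled library had 7.11 CPM, between the groups of WT cells.

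*Slc9a3r2* (ENSMUSG00000002504, chromosome 17, 24639286 to 24650327), a scaffold protein that binds membrane transporters, had 23.1 and 8.19 CPM (log2 ratio 1.498, 1.28 to 1.72). It was seen in 57.5% of *Mest*-positive and 24.8% of *Mest*-zero cells. *Aass* (ENSMUSG00000029695, chromosome 6, 23072173 to 23132986), the enzyme that opens the main pathway of lysine breakdown, had 15.3 and 6.68 CPM (1.201, 0.93 to 1.46). *Fmr1nb* (ENSMUSG00000062170, X chromosome, 68761839 to 68804567), a neighbor of *Fmr1*, had 14.9 and 6.56 CPM (1.19, 0.92 to 1.45). For all 3 the share of cells with a UMI was higher in *Mest*-positive cells too. Their levels in the dKO-labelled library were 26.9, 24.6 and 12.7 CPM.

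Among abundant genes below the 2-fold limit, *Stmn2* and *Rpl39l* stood apart. *Stmn2* (ENSMUSG00000027500, chromosome 3, 8509360 to 8561606), a microtubule regulator best known from neurons, had 867 CPM in *Mest*-positive and 515 in *Mest*-zero cells (log2 ratio 0.75, 0.72 to 0.78). Per cell its lowest level was 0, its median 858 and its highest 2105.5 CPM in *Mest*-positive cells, and 0, 487 and 2361 CPM in *Mest*-zero cells. No UMI was found in 9 of the 212 and 295 of the 1944 cells. The groups overlap over nearly the whole range, and 169 *Mest*-positive cells (79.7%) were above the *Mest*-zero median. The dKO-labelled library had 897 CPM and a median of 929 per cell.

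*Rpl39l* (ENSMUSG00000039209, chromosome 16, 10170226 to 10174911), a ribosomal protein gene that replaces its X-linked parent gene in male germ cells, had 192 and 103 CPM (0.89, 0.82 to 0.96). Its median per cell was 157 CPM in *Mest*-positive cells and 47.9 in *Mest*-zero cells, and 75.5% of the former were above the latter's median. Its copies resemble each other closely, so that some UMIs may belong to another copy. The dKO-labelled library had 198 CPM.

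**Figure D3:**
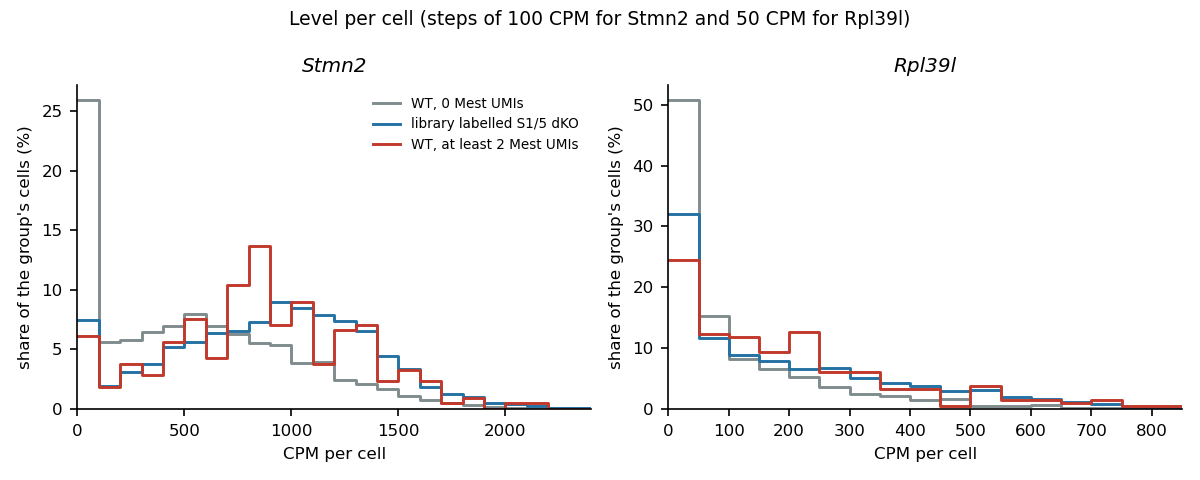
Level per cell (x axis, CPM) of *Stmn2* (left) and *Rpl39l* (right) against the share of the cells of each group (y axis, %), with the few dKO-labelled cells past the right end not drawn. The lowest step of *Stmn2* holds 25.9% of *Mest*-zero cells and 6.13% of *Mest*-positive cells, and the median of *Rpl39l* is 157 and 47.9 CPM in *Mest*-positive and *Mest*-zero cells.

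The other genes among the 15 with the highest ratios were *Platr3* (0.90), a long noncoding RNA of pluripotent cells, *Zfp978* (0.73), *Mettl25* (0.73), *Zfp992* (0.70), *Rex2* (0.69), *Ceacam20* (0.66), *2310030G06Rik* (0.58), *AC158554.1* (0.58) and *Aard* (0.57). The interval of each was above 0. *AC158554.1* and *Aard* were abundant, with 116 and 142 CPM against 77.4 and 95.5, and 67.9% and 68.4% of *Mest*-positive cells were above the *Mest*-zero medians. *Aard* was the one of these that had a lower level in the dKO-labelled library (88.7 CPM) than in *Mest*-zero WT cells.

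*Zfp978*, *Zfp992* and *Rex2* encode zinc finger proteins of the KRAB type, which silence transposons, and lie in 1 cluster on chromosome 4. From *Zfp992* to *Zfp978* (146449023 to 147391004) 10 genes had at least 50 UMIs, and all 10 had a ratio above 0, from 0.11 to 0.73 with a median of 0.41. The interval was above 0 for 6 of them, where 5.46% of all 12389 genes with at least 50 UMIs had one above 0. *Zfp992* had 45.1 and 27.8 CPM and *Zfp981* 13.5 and 9.85 (log2 ratio 0.46, 0.18 to 0.72). This stretch was chosen after its values were seen. Of 9554 windows of 21 neighboring genes, the highest median (0.31) was in the window from *Vps13d* to *Gm20707* and others that overlap it there, and the lowest of all was −0.13. *Zfp951*, another zinc finger gene, was also chosen after its value was seen. It missed the limit of 500 UMIs, with 130 and 343 UMIs (13.1 and 4.08 CPM, log2 ratio 1.69). These genes resemble each other, and reads may be divided among them.

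Of the genes at least 2-fold lower, *Grb10* was the one with a lower share of cells as well. *Grb10* (ENSMUSG00000020176, chromosome 11, 11930508 to 12038683), an adaptor that restrains insulin and IGF signaling and is maternally expressed in most tissues, had 7.37 CPM in *Mest*-positive and 21.1 in *Mest*-zero cells (log2 ratio −1.52, −1.88 to −1.18). A UMI was present in 20.3% and 47.8% of the cells. The dKO-labelled library had 2.20 CPM and 7.39% of cells, below both groups.

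*Rhox5*, an X-linked homeobox gene, had 3.94 and 15.7 CPM (−1.99), but the share of cells with a UMI was 12.7% in *Mest*-positive and 10.96% in *Mest*-zero cells. Of its 1318 UMIs in *Mest*-zero cells, 1014 lay in 30 cells with 10 or more, and no *Mest*-positive cell had more than 5. *Gm21761* had 1 UMI against 875, of which 624 and 240 came from 2 cells. Without the WT cells that had 10 or more UMIs of genes of the 2-cell stage (2 in each group), its ratio was −0.37. *Krt18*, a keratin of simple epithelia, had a ratio of −0.89. Of its 629 UMIs in *Mest*-zero cells, 282 lay in 5 cells with 10 or more, up to 89 in 1 cell. It had no UMI in 176 of the 212 *Mest*-positive and 1653 of the 1944 *Mest*-zero cells. The others of the 10 lowest, *Phf20l1*, *Wdsub1*, *Mmp14*, *Diaph2* (37 UMIs in 1 *Mest*-zero cell), *Gm2381*, *Pdzd8* and *mt-Nd6*, had ratios from −0.72 to −0.64.

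With a limit of 50 UMIs, where counting error is larger, 66 of 12389 genes were at least 2-fold higher in *Mest*-positive cells (0.533%) and 139 at least 2-fold lower (1.12%). Without the UMIs of the gene in its top cell of each group, 41 and 137 remained. Of the 14 genes on the PEG list with at least 50 UMIs in the 22 found (the list holds 23, *Mest* included), 11 had a ratio above 0, and the interval of 10 was above 0, where 47.9% of all 12389 genes had a ratio above 0 and 5.46% an interval above 0. Genes of this list share the parental origin of their DMR with *Mest* and were listed with earlier results of these cells known. Their median log2 ratio was 0.40 (−0.02 to 0.71), against −0.01 for all 12389 genes.

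*Impact*, an inhibitor of the kinase GCN2, had 68.7 and 43.1 CPM (0.67, 0.55 to 0.79), and 68.4% of *Mest*-positive cells were above the *Mest*-zero median of 32.9 CPM. *Peg10* (0.57, 0.40 to 0.74), derived from a retrotransposon, and its neighbor *Sgce* (0.77, 0.24 to 1.27) share a promoter region. The intronless genes *Mcts2* (0.52) and *Zrsr1* (0.71) and the noncoding RNA *Kcnq1ot1* (0.35, 0.26 to 0.44) were higher as well. *Snrpn* (0.28, 0.16 to 0.40) and *Peg3* (0.29, 0.04 to 0.54) had smaller ratios. *Plagl1*, a zinc finger transcription factor, had too few UMIs for the list count, 30 and 19, but a ratio of 3.75 (2.87 to 4.66). *Ndn* (−0.03), *Slc38a4* (−0.02) and *Inpp5f* (−0.15) had intervals that include 0. Several of these genes overlap others (*Mcts2* lies in *H13*, *Nnat* in *Blcap*, and *Nespas* runs opposite to *Gnas*), and how the counting used strand is not given in the sources used here. Of the genes that gain imprinting from the father's germline, *Dlk1* alone had 50 UMIs, with 4.75 and 3.81 CPM (0.32, −0.16 to 0.76).

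Maternally expressed genes were more often lower than higher. Of 16 with at least 50 UMIs, 5 had an interval below 0 and 2 above it, where 5.07% of all genes had one below and 5.46% one above. The median ratio was −0.13, with an interval that includes 0 (−0.47 to 0.16). *Phlda2*, a placental growth suppressor, had 88.9 and 141 CPM (−0.66, −0.76 to −0.56), and its median per cell was 57.6 and 105 CPM. *Cdkn1c*, an inhibitor of cyclin-dependent kinases, had 56.2 and 77.7 CPM (−0.47, −0.59 to −0.34). Both lie with *Kcnq1ot1* in 1 imprinted domain. *Copg2* (−0.39), beside *Mest*, and *Gnas* (−0.22, −0.29 to −0.16) were lower, while *Meg3* (0.16, 0.08 to 0.24) and *Cd81* (0.05) were higher by small factors. In the dKO-labelled library *Phlda2* and *Cdkn1c* had 88.7 and 55.7 CPM.

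Germline genes whose promoters are silenced by DNA methylation in somatic cells differed from gene to gene. Of 26 with at least 50 UMIs, the interval was above 0 for 6 and below 0 for 1 (5.46% and 5.07% of all genes), with a median of 0.14 (−0.14 to 0.40). Besides *Fkbp6*, at least 2-fold higher were *Dazl*, an RNA-binding protein of germ cells (4.44 and 2.19 CPM, 1.02, 0.51 to 1.504), and *Smc1b*, the meiotic cohesin subunit (2.32 and 1.05 CPM, 1.15, 0.42 to 1.83). Both were at 0.96, under 2-fold, without the top cell of each group. *Rpl10l*, a ribosomal gene of the testis, had a ratio of 0.47. *Ddx4* (0.06) and *Sycp3* (0.25), germ cell genes with more UMIs than *Dazl*, had intervals that include 0, and *Rhox5* was the gene with an interval below 0.

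The enzymes and factors that write, read and guard DNA methylation were close to equal. Of 10 DNA methylation enzymes, *Dnmt1*, which copies methylation at replication, had an interval below 0 (105 and 114 CPM, −0.12, −0.22 to −0.03), and the other 9 had intervals that include 0. *Uhrf1* had a ratio of 0.04, *Dnmt3l* had 93.7 CPM in both groups, and *Tet1* had one of −0.06. Of 14 factors that protect imprints, *Atrx* (−0.11, −0.18 to −0.04) had an interval below 0 and none had one above. Among all 12389 genes with at least 50 UMIs, the interval was below 0 for 5.07% and above 0 for 5.46%. *Zfp57* (220 and 213 CPM, 0.05, −0.02 to 0.11) and *Trim28* (0.02) were alike in both groups.

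Markers of the naïve pluripotent state, which check the cell type, were abundant in both groups. Of 17 genes, 7 had an interval above 0 and 2 below (5.46% and 5.07% of all genes), with a median of 0.04 (−0.01 to 0.13). Many of these genes are abundant and have narrow intervals, so the shares over all genes are not matched to them. *Pou5f1*, which encodes OCT4, had 1300 and 1318 CPM, with lowest, median and highest levels per cell of 484, 1307 and 2216 CPM in *Mest*-positive cells and 0, 1299 and 3264 CPM in *Mest*-zero cells. *Nanog* had 154 and 136 CPM (0.18, 0.10 to 0.26) and *Klf2* 420 and 383 (0.13). *Prdm14*, a repressor of differentiation, was the furthest apart, with 4.54 and 2.55 CPM (0.83, 0.33 to 1.30). Of 12 formative and primed genes none had an interval apart from 0, and *Utf1* was at −0.03.

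*Id1*, *Id2* and *Id3*, direct targets of BMP signaling that separate the libraries, were nearer to *Mest*-zero WT cells than to the dKO-labelled library in *Mest*-positive cells. *Id1* had 348 and 318 CPM (0.13, 0.08 to 0.18) and 161 CPM in the dKO-labelled library. *Id2* had 54.8, 57.3 and 16.8 CPM in the same order, and *Id3* 106, 103 and 61.6. Of 10 BMP pathway genes, 3 had an interval above 0 (*Id1*, *Smad1* and *Msx2*, the last with 34 and 114 UMIs and a ratio of 1.34, or 0.74 without the top cell of each group, since 12 of the 34 UMIs lay in 1 cell) and 2 below, *Smad7* (−0.22) and *Id4* (9 and 178 UMIs, 0.909 and 2.12 CPM, −1.22, with 1.33 CPM in the dKO-labelled library). Over all genes the shares were 5.46% and 5.07%. Of 9 genes listed as higher in WT than in the dKO-labelled library, the median was 0.04 and *Grb10* was the one with an interval below 0, whereas all 6 listed as higher in the dKO-labelled library that had 50 UMIs had an interval above 0. Among these were *Efhc2* (5.55 and 1.38 CPM, 2.01, 1.52 to 2.49) and *AC160336.1* (0.07, 0.03 to 0.10). Both lists were chosen on these libraries, so this is no independent evidence.

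Most markers of other cell types were rare or close between the groups, with exceptions in both directions. The 6 fibroblast genes had 7 UMIs in *Mest*-positive and 69 in *Mest*-zero cells (0.71 and 0.82 CPM summed), and *Col1a2* and *Col3a1* had none in *Mest*-positive cells. Summed over the list, primitive endoderm genes were 25.04 and 26.8 CPM (per cell 0 to 375 and 0 to 2279) and trophoblast genes 30.0 and 33.3 CPM (0 to 469 and 0 to 8623). Of the latter, *Krt18* had a lower summed level (40 and 629 UMIs, −0.89, −1.39 to −0.43), with 282 of the 629 UMIs in 5 cells. The 11 neural genes were 1081 and 730 CPM, of which *Stmn2* made up most. Of the other 10, *Tubb3* was at 0.01, *Stmn3* (0.31) and *Nefm* (17 and 46 UMIs, 1.65, 0.76 to 2.48) had intervals above 0, and *Pax6* (−0.79, −1.43 to −0.22) and *Nefl* (−0.33) below 0. Of 14 genes each for the G2/M and S phases the medians were −0.04 and −0.02. On the G2/M list 4 genes had an interval below 0 and 1 above, and on the S phase list none had either. The 14 ER stress genes had a median of −0.02, with 1 interval above 0 and 1 below, that of *Atf4* (85.7 and 104.5 CPM, −0.29, −0.39 to −0.18). Over all 12389 genes with at least 50 UMIs, 5.46% had an interval above 0 and 5.07% one below. *Ube2c* and *Top2a*, of the G2/M list, were at −0.04 and −0.09, but turned to 0.13 and 0.05 where 5 *Mest* UMIs were required. Genes of the 2-cell stage summed to 5.96 and 4.90 CPM, and to 1248 and 5985 CPM in the highest cell of each group. The 4 genes of a list around *Sp5* were at a median of −0.21, with *Fgfbp1* lower (17.8 and 26.1 CPM, −0.55, −0.78 to −0.33). The 5 X and Y genes with 50 UMIs that serve to identify the line had intervals that include 0.

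No gene followed the number of *Mest* UMIs from bin to bin among those given here. Median depth in the 4 bins, from the lowest to the highest *Mest* count, was 39276, 36790, 45867.5 and 52950 UMIs per cell. *Fkbp6* was 11.7 CPM in the 49 cells with 2 *Mest* UMIs, 14.7 in the 64 with 3 or 4, 17.5 in the 60 with 5 to 7 and 11.02 in the 39 with 8 or more, and the intervals of the 4 bins overlap. *Slc9a3r2* was 20.04, 27.1, 20.6 and 24.7 CPM in the same order, and *Grb10* 10.3, 5.81, 6.19 and 7.93. *Rpl39l* (183, 237, 185 and 158 CPM) and *Aass* (15.4, 22.1, 14.4 and 8.82) were lowest where *Mest* was highest. The 37 cells with 1 *Mest* UMI, which the rule left out, had 18.9 CPM of *Fkbp6* (12.9 to 26.7), 233 of *Rpl39l* (210.4 to 257) and 7.68 of *Grb10* (4.09 to 13.1). In these genes they were nearer to the *Mest*-positive than to the *Mest*-zero cells. *Stmn2* lay between the groups with 693 CPM (653 to 733), and so did *Slc9a3r2* with 22 UMIs (8.15 to 19.7 CPM), which was nearer to the *Mest*-zero cells. Within the *Mest*-positive cells, the 87 with and the 125 without a *Nnat* UMI had 14.4 and 13.7 CPM of *Fkbp6*, 23.8 and 22.5 of *Slc9a3r2* and 6.75 and 7.88 of *Grb10*.

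Some of these genes were also apart among the cells that the rule did not take as members. Among *Mest*-zero cells, 99 had a *Nnat* UMI, with 4641882 UMIs in all. *Fkbp6* had 65 UMIs (10.8 to 17.8 CPM) in them and 3.91 CPM in the 1845 without *Nnat* (log2 ratio 1.84, 1.43 to 2.23), *Slc9a3r2* 19.2 and 7.55 (1.35, 1.01 to 1.67) and *Fmr1nb* 12.3 and 6.23 (0.98, 0.56 to 1.38). *Stmn2* was 718 and 503.5 CPM, *Zfp992* 40.1 and 27.1 and *Grb10* 10.99 and 21.7. Of the 15 genes with the highest ratios, 12 had 500 UMIs over these cells and 8 of the 12 had an interval above 0, where 6.33% of 7709 genes had one. Of the 10 lowest, 7 passed and 3 had an interval below 0 (3.97% of all genes). *AC158554.1* (0.02), *Platr3* (−0.40), *Mettl25* (0.12) and *Rex2* (0.08) had intervals that include 0. Depth was alike, with medians of 40142 and 38681 UMIs per cell.

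**Figure D4:**
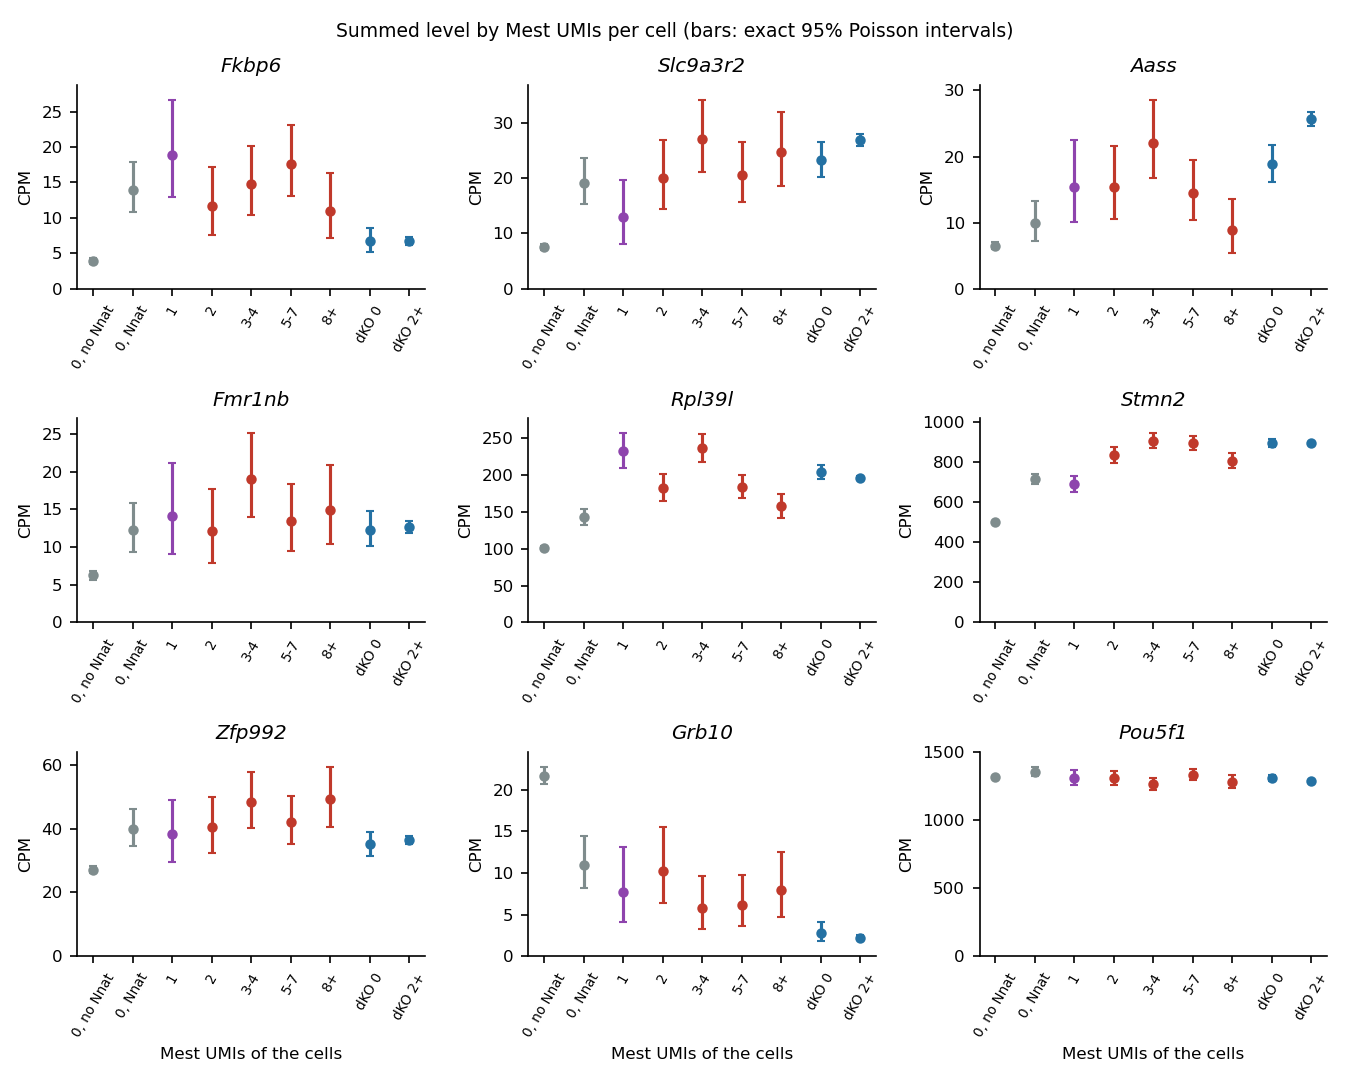
Levels (y axis, CPM, with exact 95% Poisson intervals for counting error) of 9 genes by the number of *Mest* UMIs of the cells (x axis), with *Mest*-zero WT cells divided by *Nnat* and the dKO-labelled library (blue) divided by *Mest*. *Fkbp6*, *Slc9a3r2* and *Stmn2* are lowest and *Grb10* highest in the *Mest*-zero cells without *Nnat*, and *Pou5f1* lies between 1268 and 1357 CPM in every group.

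In the dKO-labelled library, where most cells had *Mest*, the division by *Mest* gave smaller ratios for the genes that led in WT. *Fkbp6* was 6.73 CPM in the 2070 cells with 2 or more *Mest* UMIs and 6.69 in the 310 with none (log2 ratio 0.01, −0.37 to 0.41). *Stmn2* (897 and 898 CPM) and *Fmr1nb* (12.7 and 12.3) were alike, and *Slc9a3r2* (27.0 and 23.3, 0.21, 0.01 to 0.42), *Nnat* (25.9 and 21.7, 0.26, 0.05 to 0.47) and *Aass* (25.7 and 18.8, 0.45, 0.23 to 0.68) differed by small factors. *Grb10* was 2.21 and 2.76 CPM. Of the 15 genes 3 (*Slc9a3r2*, *Aass* and *Aard*) had an interval above 0 and 1 (*Zfp978*) below, where 11.5% of 7923 genes had one above and 5.76% one below. Of the 10 lowest in WT, 6 passed and 2 had an interval below 0. The 310 cells were shallower, with a median of 29253 UMIs against 37075.5. The difference between the libraries in these ratios was not tested.

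A segment of chromosome 8 that separates the libraries was at the WT level in *Mest*-positive cells. From *Borcs8* to *Smad1* (70139499 to 79399518, 147 genes) the dKO-labelled library had fewer UMIs than *Mest*-zero WT cells, with a log2 ratio of −0.53 (−0.53 to −0.53) for the sum. The *Mest*-positive cells had a ratio of 0.02 (0.01 to 0.03). Per cell, the median share of UMIs from the segment was 1.15% in *Mest*-positive cells, 1.14% in *Mest*-zero cells and 0.785% in the dKO-labelled library. At or below the 95th percentile of that library (0.907%) lay 5 of 212 *Mest*-positive cells (2.36%) and 46 of 1944 *Mest*-zero cells (2.37%). The totals of the whole autosomes and of the X chromosome were within 0.02 of 0 on the log2 scale.

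**Figure D5:**
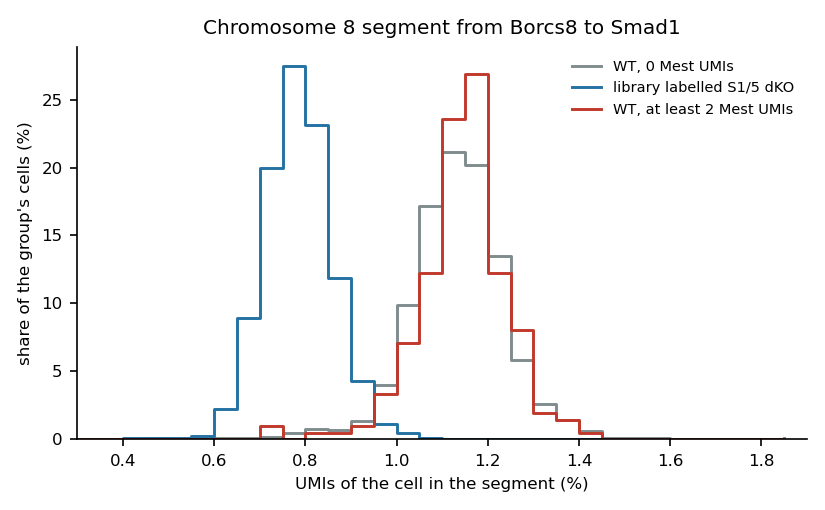
Share of a cell's UMIs that fall in the chromosome 8 segment from *Borcs8* to *Smad1* (x axis, %) against the share of the cells of each group (y axis, %). The *Mest*-positive WT cells (red) lie over the *Mest*-zero WT cells (gray) around 1.15%, and the dKO-labelled library (blue) around 0.785%.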

How the data were processed

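Single-cell libraries of WT and S1/5 dKO mESCs, 1 each, were analyzed. Per the authors, Cell Ranger 3.0.2 with the mm10 genome made the matrices. The deposited counts are raw UMIs, for 31053 genes and every barcode of the kit. Barcodes with at least 1000 genes and at most 5% mitochondrial UMIs, as in the study, and at least 10000 UMIs were kept. Counts were summed over cells and divided by the total of the group (CPM). Ratios carry exact 95% conditional binomial intervals, shares binomial and levels Poisson intervals. Depth limits precision: 50 UMIs leave wide intervals. The ratios were tested on simulated data. Medians of lists use genes with at least 50 UMIs.

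The members, lists, genes and rules were chosen with earlier results of these data known. Named are the markers, the 15 highest and 10 lowest ratios among non-imprinted genes with at least 500 UMIs, imprinted genes at least 2-fold apart with *Impact*, *Grb10*, *Peg3*, *Snrpn* and *Plagl1*, up to 4 abundant genes of each other list, the genes higher or lower in the dKO-labelled library, and *Smad1*, *Smad5*, *Id1*, *Nanog* and *Pou5f1*. Other genes of a list were named after their values were seen. Positions are from GENCODE for GRCm38 and promoters from RefSeq. Python 3.11.15, numpy 2.4.6, scipy 1.17.1, pandas 2.3.3 and matplotlib 3.10.9 were used. The alternatives were other minimums of *Mest* UMIs, UMIs per cell and per gene, thinning, per-cell means, median scaling, weighting by depth and leaving out deep cells or the top member cell. Leaving out the top cell of both groups or cells with 2-cell stage genes, and the division by *Nnat*, were added after seeing the data. A top cell was left out by taking its UMIs of the gene or segment from the sum, with the group totals kept.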

Additional observations from a re-analysis of the deposited data

How the results depend on the processing

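Each condition has 1 library, so no replicate could be left out and no paired analysis was possible because there is 1 library per condition. The number of *Mest*-positive cells, 212, was 99 where 5 *Mest* UMIs were required and 53 where each cell was thinned to 10000 UMIs, since both require more *Mest* per cell. The 4 genes at least 2-fold higher became 2 (*Slc9a3r2* and *Fmr1nb*) with 5 *Mest* UMIs, 7 (3 of the 4) after thinning, 9 (all 4 included) at 200 UMIs per gene and 0 at 1000 UMIs per gene, a limit that all 4 miss. The 3 genes at least 2-fold lower became 8 with 5 *Mest* UMIs, 43 after thinning and 15 at 200 UMIs per gene, each including the 3. The chromosome 8 segment was at 0.027 after thinning and 0.0071 without cells over 2 times the median UMIs. It was at −0.0063 without the segment's UMIs of the *Mest*-positive cell with the most there. Without those of such a cell in both groups it was at −0.0029. The group totals were kept in both settings, which alone lowers the ratio of an abundant segment, so the turn in sign cannot be read. The medians of the PEG, maternally expressed and *Xlr* lists kept their sign under all 10 alternatives and stayed within the interval of the median (for *Xlr*, the range of its genes). Of 1033 values of 104 named genes under these alternatives, 949 stayed within the counting interval, 77 moved by more, and 7 turned in sign: *Ube2c* (0.13), *Top2a* (0.052) and *AC160336.1* (−0.048) with 5 *Mest* UMIs, *Dppa5a* after thinning (0.0019), as a mean per cell (0.015) and without deep cells (0.0014), and *Gm5662* without its top cell (−0.59). The causes were not tested. Thinned values rest on few UMIs: *Fkbp6* was then at 0.96 and *Slc9a3r2* at 1.09.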
